A study of Mus musculus with 58 samples.

Results

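PSPC1 was mapped on chromatin of mouse embryonic stem cells in 2 forms, a tagged protein made from its own gene and a tagged protein that was overexpressed. Chromatin immunoprecipitation followed by sequencing (ChIP-seq) gave 18455 and 22926 peaks in the 2 knock-in libraries and 22785 peaks in the single overexpression library. These 64166 peaks are part of the 156215 peaks in the 9 peak lists used here, from a series of 58 samples. A knock-in site is a replicate 1 peak that overlapped a replicate 2 peak, merged with it, and there were 10352 such sites. A site or a peak counts as matched where it shares at least 1 bp with the other form. This rule gave 4 classes: 6330 matched and 4022 knock-in-only sites, and 8147 matched and 14638 overexpression-only peaks.

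The knock-in cells, AID-FB(KI)-PSPC1, came from the CJ9 line and carry a tag at the PSPC1 gene itself. AID is an auxin-inducible degron, a sequence that lets a protein be destroyed on demand, and FB is a FLAG-biotin tag. These libraries came from cells without auxin treatment and were fixed with 3% formaldehyde for 10 min. The overexpression cells, FB(OE)-PSPC1, came from a J1 line that makes the biotin ligase BirA, and were fixed with 1% formaldehyde for 10 min. Both forms were precipitated with 5 µg of the same FLAG antibody after sonication to 200 to 500 bp, with no second affinity step, and all cells had a 129/Ola background per the labels. The promoter and the level of the overexpressed protein are not given in the labels. The form of PSPC1, the parental line and the fixation changed together between the groups, so their parts in any difference cannot be told apart. The deposited lists also start at different scores, 30 in both knock-in lists and 50 in the overexpression list. A peak list of cells without a tag was not used here.

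PSPC1 (paraspeckle component 1) is an RNA-binding protein of the DBHS family, with NONO and SFPQ as its relatives. DBHS proteins pair through their shared core and bind both RNA and chromatin-associated complexes. Much of PSPC1 is known from paraspeckles, nuclear bodies that assemble on the long noncoding RNA Neat1. The 6 other peak lists come from overexpressed proteins in the same J1 line. CIRH1A, UTP3 and UTP6 are factors of the small-subunit processome, which matures ribosomal RNA in the nucleolus, and their chromatin was fixed with 3% formaldehyde like that of the knock-in. hnRNPU, SAFB and SAFB2 are nuclear scaffold proteins that bind RNA, and they were fixed with the protein crosslinker DSP and then 1% formaldehyde, treated with DNase I and purified a second time on streptavidin.

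With 2 knock-in libraries and 1 overexpression library, an exact permutation test cannot give a p below 0.333, so no test between the forms was made. Shares carry Wilson 95% intervals and medians carry 95% order-statistic intervals. Both cover counting error only, since peaks of a library are not replicates. Values of the 2 knock-in libraries are given as mean ± SD, and the overexpression list has no replicate check. The labels do not say whether the knock-in libraries came from separate cultures.

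By median, matched peaks were stronger and wider than the other peaks of their list. Of all knock-in sites, 61.1% were matched (interval 60.2 to 62.1%), and of all overexpression peaks 35.8% were matched (35.1 to 36.4%). Shares at random positions were not computed, so these values do not show an overlap particular to PSPC1. UTP6, another protein with a longer list (40217 peaks), met 86.8% of the matched and 45.2% of the knock-in-only sites. Matched sites had a median width of 2525 bp (2492 to 2570) and knock-in-only sites one of 2048.5 bp (2013 to 2081). Among overexpression peaks, the matched ones had a median width of 457 bp (450 to 465) and the others one of 277 bp (274 to 279). The width distributions of the 2 forms hardly met, since the middle 50% of matched sites lay between 1886 and 3675 bp and that of matched overexpression peaks between 317 and 706 bp. Because of this, matched sites covered 21.1 Mb, while the overexpression peaks that met them covered 4.65 Mb. Knock-in-only sites covered 9.50 Mb and overexpression-only peaks 4.89 Mb. The knock-in lists reach down to lower scores than the overexpression list. With a score of at least 50 required, 6572 sites remained, of which 71.4% were matched. Of overexpression peaks, 27.5% were then matched. Under a reciprocal overlap of 50%, a rule that peaks of such unequal width can seldom meet, 2.22% of sites and 1.01% of overexpression peaks were matched, and the width ratio of matched to other sites turned from 1.23 to 0.842.

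The order was the same in each knock-in library taken alone, with every peak of the library in place of the sites. In replicate 1, 40.2% of peaks were matched, with median widths of 1988.5 bp for matched and 1282 bp for unmatched peaks. In replicate 2, 40.4% were matched, with median widths of 1858 and 1220 bp. The matched share was 40.3% ± 0.117 (SD, n = 2), and the libraries differed from each other in median width by less than matched and unmatched peaks did within either. The lower share than for sites came from peaks found in a single knock-in library. Of replicate 1 peaks that also met replicate 2, 58.1% were matched, against 14.6% of the 7595 peaks of replicate 1 alone. For replicate 2 these shares were 57.5% and 24.3%, the latter of 11845 peaks.

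**Figure D1:**
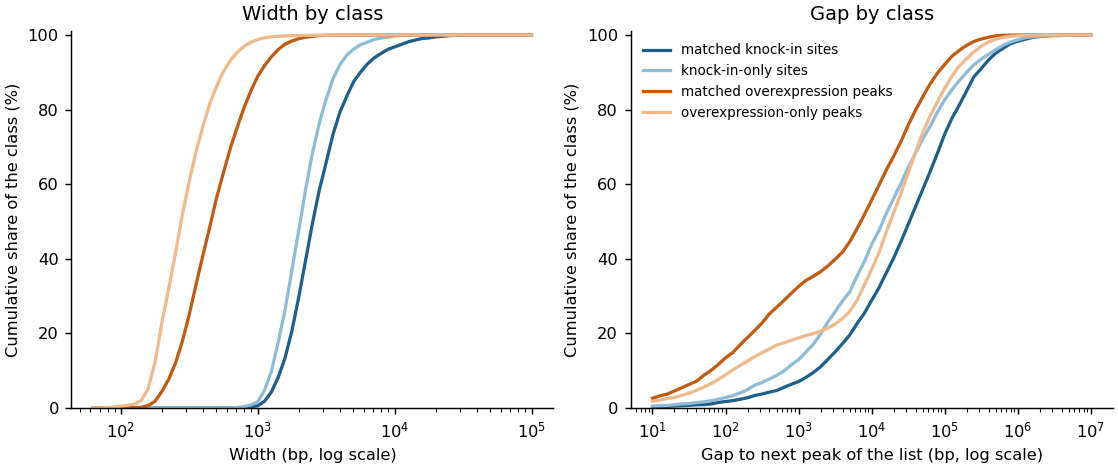
Cumulative share of each class (%) by width (left, bp, log scale) and by the gap to the next peak of the same list (right, bp, log scale), 1 line per class. The overexpression classes lie left of the knock-in classes in width, with medians of 457 and 277 bp against 2525 and 2048.5 bp. Matched sites are the farthest right in both panels.

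The share of matched peaks rose with the deposited score in both lists. The score is the authors' value for each peak and was used only as a rank within its own list, as the percentage of the list's peaks at or below it. For a site it is the mean of the best percentile in each knock-in library. Matched sites had a median percentile of 77.1 (76.2 to 77.8) and knock-in-only sites one of 54.5 (53.5 to 55.6). This difference of 22.6 was 34.1 with replicate 1 left out, 35.1 with replicate 2 left out and 9.98 under the reciprocal overlap of 50%. In the overexpression list the medians were 66.7 (65.6 to 67.8) for matched and 41.7 (41.0 to 42.5) for overexpression-only peaks. In the lowest 10% of sites by score 33.8% were matched (31.0 to 36.7%), and in the highest 10% they were 93.9% (92.3 to 95.2%). Among overexpression peaks the share went from 20.7% (19.1 to 22.4%) to 73.1% (71.3 to 74.9%), with 19.7% in the second lowest 10%. Scores of the knock-in lists piled up at 3100, with 314 and 280 peaks at that value or above. At that value or above in both knock-in libraries stood 263 sites, of which 259 were matched (98.5%). Only 10 overexpression peaks reached it, 3 of them matched and 7 overexpression-only.

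Ranks of the sites were more alike between the knock-in libraries than between the forms. Spearman's rho was 0.730 between replicates 1 and 2 over the 10352 sites. Between the site percentile and the best overexpression percentile it was 0.375 over the 6330 matched sites. Replicate 1 alone gave 0.344 and replicate 2 alone 0.379. These are descriptions across sites, which share a library, and the first and the others cover different sets of sites.

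**Figure D2:**
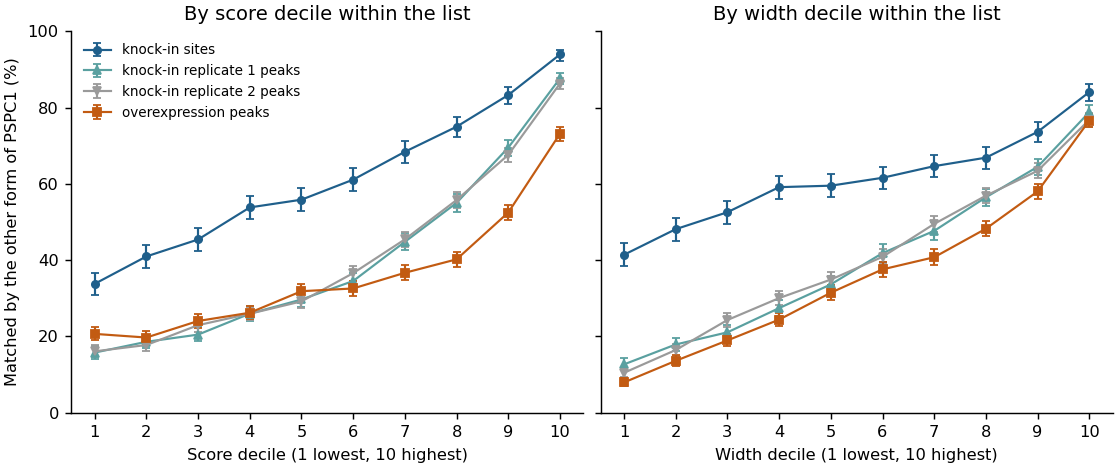
Share of knock-in sites, of peaks of each knock-in library and of overexpression peaks that were matched (%), by score decile (left) and width decile (right) within each list, with Wilson 95% intervals. All 4 lines rise, and those of the 2 knock-in libraries lie on each other.

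Score and width went together within each list (rho 0.629 over sites and 0.752 over overexpression peaks), and they ordered the matches differently in the 2 lists. Peaks were split into 4 score groups and, separately, into 3 width groups. Among sites the score group set most of the order. In the narrowest width group, matched shares were 36.1, 53.6, 70.3 and 82.5% from the lowest to the highest score group, the last over 80 sites. Within 1 score group the width made less difference: in the second group the narrow, middle and wide sites were matched at 53.6, 54.6 and 49.8%, and in the highest group at 82.5, 83.7 and 87.3%. In the lowest score group the share still went from 36.1 to 48.5% with width.

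Among overexpression peaks the width set most of the order. In the narrowest width group the matched shares were 14.4, 15.3, 15.3 and 9.35% from the lowest to the highest score group, so a high score did not go with more matches there. In the widest width group they were 56.6, 54.0, 49.1 and 63.8%. At the highest score group, narrow, middle and wide overexpression peaks were matched at 9.35% (6.31 to 13.6%, 246 peaks), 42.1% (38.5 to 45.7%) and 63.8% (62.5 to 65.2%). Without chromosome 1 these 3 shares were 8.85, 40.2 and 61.2%. Peaks narrower than 200 bp, the lower end of the sonication range, numbered 3672 in the overexpression list, of which 353 were matched (9.61%), and neither knock-in list held any.

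Width went with matching more clearly in the single knock-in libraries than among the sites. With every replicate 1 peak in place of the sites, the lowest score group was matched at 12.1, 26.5 and 39.9% from narrow to wide, and the highest at 65.2, 67.1 and 76.4%. Replicate 2 gave 12.3, 27.3 and 41.3% in the lowest group and 64.0, 65.8 and 74.5% in the highest. The sites differ from these peaks in that they had to be found in both libraries.

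**Figure D3:**
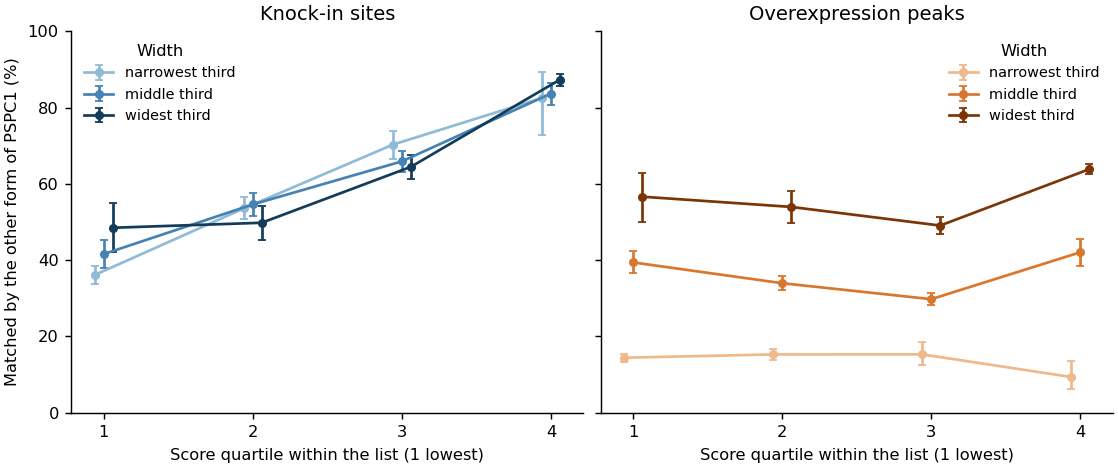
Matched share (%) of knock-in sites (left) and of overexpression peaks (right) by score group within the list (1 lowest), 1 line for each width group, with Wilson 95% intervals. The left lines rise together, while the right lines stay apart and differ more by width than by score.

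Most matched sites held 1 overexpression peak, and that peak lay near the middle of the site. Of the 6330 matched sites, 4865 (76.9%) held 1 peak, 1202 (19.0%) held 2, 216 held 3, 25 held 4 and 22 held 5 or more. The mean was 1.29 ± 0.628 peaks (SD over matched sites). Wider sites held more: the mean over all sites went from 0.451 in the narrowest 10% of sites to 1.48 in the widest 10%. Per length the order turned, from 3.81 overexpression peaks in 10 kb of the narrowest sites to 1.78 in 10 kb of the widest. With overexpression peaks up to 1 kb apart joined, the share of matched sites with 2 or more fell from 23.1 to 5.37%, and in the higher scoring 50% of each list it was 12.9%.

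Of the 8154 pairs of a site and a peak in it, 98.1% had the overexpression peak wholly inside the site. The peak's midpoint lay in the middle 50% of the site in 80.0% of pairs, and in the outermost 10% at either end in 2.31%. In 41 pairs the midpoint lay outside the site. The median distance from the midpoint to the centre of the site was 358 bp, and 262.5 bp for sites with 1 peak. Sites with 1 peak had it in the middle 50% in 86.2% of pairs, and sites with several in 70.9%. A matched site was wider than the overexpression peak in it by a median factor of 6.21. Overexpression peaks covered a median of 21.8% of a matched site (middle 50% of sites, 14.1 to 32.6%), and 5.86% of matched sites were covered to 50% or more. Where a site held several peaks, the median gap between neighbours was 281.5 bp, and 76.0% of the 1824 gaps were at most 1 kb.

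The matching rule had few cases at its edge. The smallest overlap of a pair was 2 bp, and 8 pairs overlapped by less than 50 bp. The nearest miss was 14 bp, and 7 knock-in-only sites lay less than 50 bp from an overexpression peak. Counting gaps of up to 1 kb as a match moved the matched share of sites from 61.1 to 62.2%. Distances from unmatched sites and peaks to the other form were also measured. Of knock-in-only sites, 38.3% lay within 10 kb and 90.2% within 100 kb of an overexpression peak, with a median gap of 15337 bp. Of overexpression-only peaks, 12.0% lay within 10 kb and 57.3% within 100 kb of a site, with a median gap of 75007 bp. The lists compared differ in length, which bears on these distances. The shares that random positions would give were not computed, so these values do not show that the 2 forms lie near each other.

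**Figure D4:**
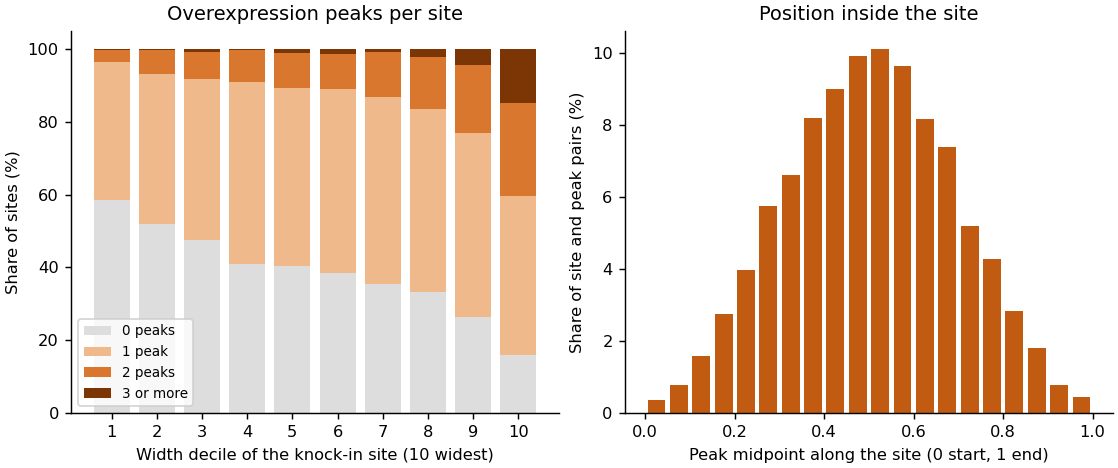
Left, share of knock-in sites (%) that held 0, 1, 2 or 3 or more overexpression peaks, by decile of site width. Right, share of the 8154 pairs of a site and an overexpression peak (%) by the position of the peak's midpoint along the site, from 0 at its start to 1 at its end, with the 41 pairs whose midpoint lay outside the site not drawn. Sites without a peak fall from 58.6 to 15.9% across the width deciles, and midpoints are most frequent at the centre.

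The widest domains of the knock-in were nearly all matched. Of 213 sites of 10 kb or more, 202 were matched (94.8%, 91.0 to 97.1%), with a mean of 2.57 overexpression peaks. Of the 10139 narrower sites 60.4% were matched. A wider site has more room to meet a peak under the 1 bp rule, and the part of width in these shares was not tested. Per 10 kb, the widest 10% of sites held fewer overexpression peaks than the narrowest 10% (1.78 against 3.81). The 5 sites described next held the most overexpression peaks, as rows of separate narrow peaks. Positions are those of the mm9 build named in the submitters' processing notes, counted from 1. Genes at them were not assigned, since no annotation of that build was used here.

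The site with the most overexpression peaks was also the widest, chr11:96140209-96219117, with 78909 bp. It was 1 peak with a score of 1982.11 in replicate 1 and 3 peaks with a best score of 3100 in replicate 2. It held 14 overexpression peaks, 418 to 2050 bp wide, which covered 17.1% of it, with scores from 58.33 to 729.82. The next site, chr6:52146253-52206365, was a single peak in each knock-in library, with scores of 406.65 and 327.9. It held 12 overexpression peaks, which covered 21.2% of its 60113 bp. The third, chr15:102777123-102852675, reached 3100 in both knock-in libraries and held 10 overexpression peaks with a best score of 1222.38. The remaining 2 sites, chr2:74504152-74539630 and chr2:105499092-105532293, held 7 overexpression peaks each. In these 5 sites, overexpression peaks covered between 16.6 and 21.2% of the knock-in domain, and gaps between them reached 11773 bp.

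Strong knock-in sites without an overexpression peak were few. The 5 with the best scores were chr7:56886958-56896677, chr1:74991801-75001052, chr10:112254212-112262635, chr7:77509057-77516039 and chr12:54346714-54350823, 4110 to 9720 bp wide. The first had scores of 3220.05 and 3100 in the 2 knock-in libraries and lay 60142 bp from the nearest overexpression peak. The site on chromosome 10 had 3100 in both libraries, lay 103292 bp from the nearest overexpression peak and met none of the 6 other lists. The second site on chromosome 7 lay 1889 bp and the one on chromosome 12 lay 2483 bp from an overexpression peak, so these 2 were near misses on the scale of a site. The widest knock-in-only site, chr8:73006687-73021227, had 14541 bp, scores of 375.73 and 359.16, and an overexpression peak 4815 bp away.

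The few overexpression peaks with the highest scores among those at no peak of either knock-in library also lay at peaks of other overexpressed proteins. They were chr15:74915859-74917491, chr2:98506276-98507566, chrUn_random:5495362-5497282, chr13:77578106-77578356 and chr12:98299569-98300076. The first 3 stood at a score of 3100. The first 4 met a peak in all 6 other lists, and the fifth, with a score of 2134.95, met CIRH1A, UTP3 and UTP6. The nearest knock-in peak was 3027 bp away for the chromosome 2 peak, in replicate 1, and 23040 bp or more for the others. Of all overexpression-only peaks, 81.1% met at least 1 other list and 1.92% met all 6. In the highest score group 86.6% of them met at least 1. The few listed peaks do not stand for all strong ones. Among the 2279 highest scoring overexpression peaks, 368 met no knock-in peak (16.1%), against 44.7% of the whole list. UTP6 and UTP3 met the 368 less often than the matched peaks of that score range. CIRH1A and hnRNPU were level, and SAFB and SAFB2 met them more often. Whether the listed regions would also be called in cells without a tag was not tested.

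Of the 22785 overexpression peaks, 405 met a peak in all 6 other lists. Among these 124 were matched (30.6%), 91 met 1 knock-in library alone and 190 met no knock-in peak (46.9%, 42.1 to 51.8%). Over all overexpression peaks 35.8% were matched and 44.7% met no knock-in peak, so these 405 were near the whole list. Of the 126 knock-in sites with a peak in all 6 other lists, 10 lacked an overexpression peak (7.94%), against 38.9% of all sites. All 6 lists come from the parental line of the overexpression cells, and the part of the line in this was not tested.

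A peak of any of the 6 other proteins set the site classes apart. Over the whole list it hardly set the overexpression classes apart, though single proteins within score groups did, as given below. At least 1 other list had a peak at 89.1% of matched sites (88.3 to 89.8%) and at 50.9% of knock-in-only sites (49.3 to 52.4%). For overexpression peaks these shares were 83.2% (82.3 to 84.0%) when matched and 81.1% (80.5 to 81.7%) when not, and that small order turned under 3 alternatives. In the higher scoring 50% of each list the difference went from 2.07 to -10.1 percentage points. It was -0.780 (-1.92 to 0.338) with a score of at least 50 and -0.598 (-1.70 to 0.484) with equal list lengths. The intervals of these last values include 0. UTP6, whose list is the longest with 40217 peaks, met 86.8% of matched and 45.2% of knock-in-only sites. CIRH1A met 36.9 and 7.81%, UTP3 50.2 and 15.1%, and hnRNPU 35.7 and 11.3%. SAFB met 11.2 and 5.10%, and SAFB2 7.73 and 3.58%. The knock-in-only shares were lower with all peaks of 1 knock-in library in place of the sites. With replicate 2 left out they were 27.6% for UTP6, 4.91% for CIRH1A, 9.15% for UTP3, 6.76% for hnRNPU and 2.27% for SAFB2, and with replicate 1 left out the share for hnRNPU was 6.41%. The gap between any other list at matched and at unmatched overexpression peaks was 7.48 percentage points without replicate 1.

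Matching of sites rose with the number of other lists that had a peak there, from 25.9% (24.3 to 27.6%) of the 2667 sites with none to 92.1% (86.0 to 95.6%) of the 126 sites with all 6. For overexpression peaks it was nearly level, at 33.1% (31.7 to 34.6%) with none, 38.3% with 4 and 30.6% (26.3 to 35.3%) with all 6. The order among sites held within score groups: in the lowest score group, UTP6 met 89.3% of matched and 41.4% of knock-in-only sites, and in the highest 84.5 and 50.4%. Site width was higher in matched sites, and a wider site has more room to meet a peak. The part of width was not tested here.

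For SAFB and SAFB2 the order among overexpression peaks was the reverse of that among sites. SAFB met 9.89% of matched and 14.5% of overexpression-only peaks, and SAFB2 6.43 and 9.50%. Within score groups CIRH1A and UTP3 showed this order too, except in the lowest. In the highest, CIRH1A met 42.8% of matched and 54.7% of overexpression-only peaks, and UTP3 53.9 and 61.6%. In the third, CIRH1A met 30.4 and 40.8% and UTP3 43.2 and 52.6%. UTP6 was also lower at matched peaks in the second group (75.8 and 78.5%) and the third (79.6 and 85.5%). In the lowest and highest groups UTP6 was higher at matched peaks. hnRNPU met 31.3 and 24.9% over the whole list and 38.6 and 41.1% in the highest score group.

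**Figure D5:**
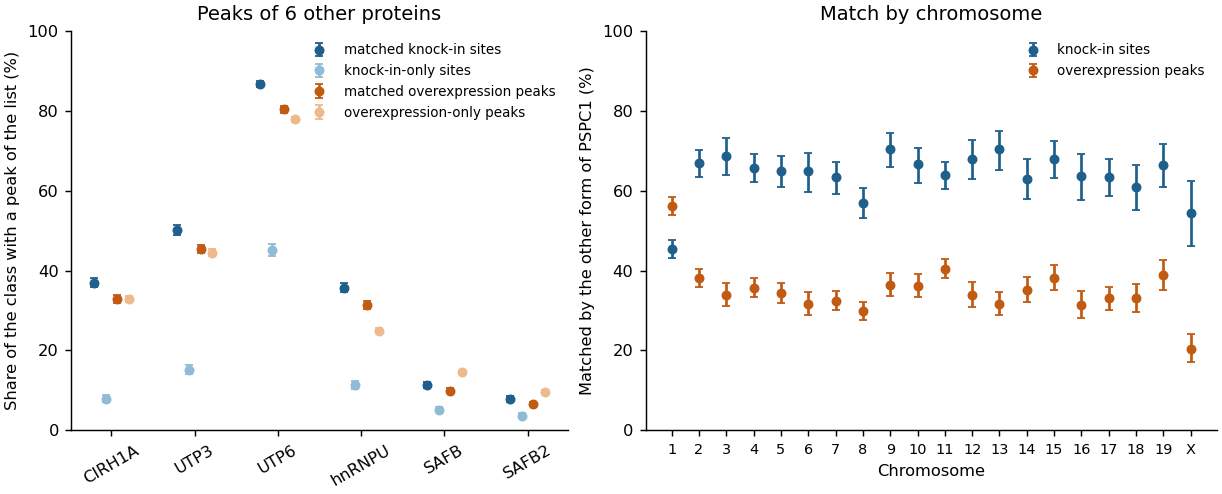
Left, share of each class (%) with a peak of each of the 6 other proteins. Right, share of knock-in sites and of overexpression peaks that were matched (%) on each chromosome. Bars are Wilson 95% intervals. Knock-in-only sites are lowest for every protein, and chromosome 1 has the lowest share for sites and the highest for overexpression peaks.

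Part of the overexpression-only class met the knock-in in a single library. Of the 14638 overexpression-only peaks, 4453 (30.4%, 29.7 to 31.2%) lay at a peak of 1 knock-in library alone, 1237 in replicate 1 and 3216 in replicate 2. With these, 55.3% of all overexpression peaks met some knock-in peak, and 10181 (44.7%) met none. The median width fell in that order, from 457 bp at sites to 321 and 337 bp at peaks of 1 library alone and 257 bp (255 to 260) at no knock-in peak. UTP6 had a peak at 80.4% of overexpression peaks at sites, at 84.6 and 89.5% of those at 1 library alone, and at 73.4% of those at no knock-in peak. Of the highest scoring 2279 overexpression peaks, 368 met no knock-in peak (16.1%, 14.7 to 17.7%). Their median width was 474 bp against 924 bp for the matched peaks of that score range, and UTP6 met 51.9% of them against 86.4%. UTP3 was lower too, at 44.3 against 54.6%. CIRH1A (44.8 and 43.7%) and hnRNPU (39.4 and 39.3%) were level, and SAFB (17.9 and 11.1%) and SAFB2 (19.6 and 7.44%) were higher.

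Knock-in-only sites lay closer to other sites of their own list than matched sites did, and in the overexpression list the order was the other way round. A next site within 10 kb was found for 43.8% of knock-in-only sites (42.3 to 45.4%) and for 28.8% of matched sites (27.7 to 29.9%). In the knock-in libraries taken alone the shares were 53.3% ± 2.03 for unmatched and 40.4% ± 3.17 for matched peaks (SD, n = 2), and the unmatched share was higher in both. Without chromosome 1 the difference between matched and knock-in-only sites was -11.4 percentage points, against -15.1 with it. Of overexpression peaks, 55.7% of matched ones (54.6 to 56.8%) and 37.1% of the others (36.3 to 37.8%) had a next peak within 10 kb. Joining overexpression peaks up to 1 kb apart left 11.0 of these 18.6 percentage points, and under the reciprocal overlap of 50% the difference turned to -18.2. Wide sites that hold several overexpression peaks add to this figure by the way the classes were made.

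Neighbours within 10 kb were of the same class in 50.9% of matched sites and 50.0% of knock-in-only sites, which is near the share of each class among the 3585 sites with a neighbour (50.8 and 49.2%). In the overexpression list the shares were 86.0% for matched and 85.7% for overexpression-only peaks, against 45.5 and 54.5% of the 9960 peaks with a neighbour. Several overexpression peaks in 1 site are of 1 class by construction and count in the former. Runs of 3 or more peaks of 1 class with gaps of at most 10 kb held 3.49% of matched sites, 8.85% of knock-in-only sites, 17.4% of matched overexpression peaks and 9.29% of overexpression-only peaks. The longest run of knock-in-only sites had 7 sites, at chr1:135136022-135172258, with best scores of 110.09 and 109.92 in the knock-in libraries and the nearest overexpression peak 1865 bp away. The longest run of overexpression-only peaks had 26 peaks in 37553 bp at chrUn_random:4737004-4774556, with the nearest knock-in peak 316385 bp away.

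Chromosome 1 stood apart in both directions. Of its 1875 knock-in sites 45.5% were matched (43.3 to 47.8%), below every other autosome, which ranged from 57.0% on chromosome 8 to 70.4% on chromosome 9 with a median of 65.3%. Of its 1807 overexpression peaks 56.3% were matched (54.0 to 58.6%), above every other autosome, which ranged from 29.8% on chromosome 8 to 40.5% on chromosome 11. It held 18.1% of all sites, and 22.4 and 19.0% of the peaks of the knock-in libraries, against 7.93% of overexpression peaks. By class, chromosome 1 held 25.4% of knock-in-only sites and 13.5% of matched sites, and 12.5% of matched and 5.40% of overexpression-only peaks. In the knock-in libraries taken alone it held 26.6% ± 3.58 of unmatched and 12.0% ± 0.652 of matched peaks (SD, n = 2). Without this chromosome 64.6% of sites and 34.0% of overexpression peaks were matched.

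The low share of matched sites on chromosome 1 was found mainly among weak sites. From the lowest to the highest score group the matched shares there were 19.1, 36.0, 54.3 and 83.9%, against 43.5, 57.5, 69.2 and 86.7% on the rest of the genome. Its bins of 10 Mb were set against the whole-chromosome shares of the other autosomes. In 15 of 20 bins the matched share of sites was below that of every other autosome. In 16 bins the matched share of overexpression peaks was above that of every other autosome. Among the 17 bins with at least 20 sites, these counts were 14 and 16. Single bins vary more than whole chromosomes, and bins of other autosomes were not counted, so these counts have no baseline. Chromosome 1 sites were also more crowded, with a next site within 10 kb for 61.5% of knock-in-only and 44.3% of matched sites, against 37.8 and 26.4% elsewhere. UTP6 had a peak at 93.3% of matched and 39.7% of knock-in-only sites of chromosome 1, against 85.8 and 47.1% elsewhere. The knock-in and overexpression cells come from different lines, and no input or genome copy number was analysed here. Its part in the chromosome 1 values was not tested.

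Matched shares of overexpression peaks were low outside the autosomes, and those of sites were low on unplaced sequence. On chromosome X 54.4% of 136 sites (46.0 to 62.5%) and 20.2% of 499 overexpression peaks (16.9 to 24.0%) were matched. Sequence not placed on a chromosome held 77 sites, of which 26.0% were matched, and 330 overexpression peaks, of which 6.36% were. Chromosome Y held no knock-in site and 14 overexpression peaks. With its unplaced parts included, the Y chromosome held 8 and 12 peaks of the knock-in libraries and 53 overexpression peaks. The share of a list on chrUn_random was 0.211 and 0.188% in the knock-in libraries and 1.04% in the overexpression list, and between 0.201% (UTP6) and 0.712% (CIRH1A) in the 6 other lists.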

How the data were processed

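One peak list per library was used, 2 of knock-in and 1 of overexpressed PSPC1, with 6 further lists for comparison. Each deposited list gives a chromosome, a start, an end, a name and a score per peak. The score is the authors' value with no stated scale. It starts at 30 in the knock-in lists and at about 50 in the others, so it was ranked within a list only. Peak names carry the word MACS. Its version, threshold and control library, and the depth, are not given in the sources used here. The submitters' processing notes name the mm9 build and CASAVA, Bowtie2 and TopHat, without roles.

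Sites were built and matched as described, with a minimum overlap of 1 bp. Gaps are between the nearest edges of neighbours in a list. Deciles, 4 score groups and 3 width groups were cut by rank within a list. The regions named are the 5 matched sites with the most overexpression peaks, the 5 knock-in-only sites with the best percentiles, the 5 highest scoring overexpression peaks at no knock-in peak, the longest run of each unmatched class, and the widest site of each class. The classes, lists and rules were chosen with earlier results of these data known. Alternatives were other overlap rules, score minimums, equal list lengths, joined peaks, a chromosome or a replicate left out, and other clustering distances. The matching code was tested on simulated data. The work was done in Python 3.11.15 with pandas 2.3.3 and numpy 2.4.6 for the tables, scipy 1.17.1 for ranks and intervals, and matplotlib 3.10.9 for plots.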

Additional observations from a re-analysis of the deposited data

How the results depend on the processing

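Of 153 comparison values under the alternatives, 72 stayed within the interval of the value reported, 76 moved beyond it and 5 reversed. Among the reversed values, -0.780 and -0.598 points for any other list in overexpression peaks had intervals that include 0. Of 444 values of single classes, 231 moved, 94 up and 137 down. The cause of a change was not tested unless the alternative's construction gives it. Depth is unknown, so the length of a list cannot be set against it. No paired analysis was possible because the overexpression group has 1 library. Gene annotation of the regions was not run.

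A reciprocal overlap of 50% left 2.22% of sites and 1.01% of overexpression peaks matched. It gave width ratios of 0.842 (sites, matched over knock-in-only; reported 1.23) and 3.54 (overexpression peaks, matched over the rest; reported 1.65), score percentile differences of 9.98 and 45.7, and no matched site with 2 or more overexpression peaks (0%). Differences in percentage points, for sites and then for overexpression peaks, were -19.0 and -18.2 for a neighbour within 10 kb, 6.96 and 3.41 for chromosome 1, and 24.6 and 16.6 for any other list. Of overexpression-only peaks, 21.0% then lay at 1 knock-in library alone. A score of at least 50 gave matched shares of 71.4 and 27.5%, width ratios of 1.16 and 1.71, 26.3% of matched sites with 2 or more peaks, 21.0 points for overexpression neighbours, 10.2 points for chromosome 1 in sites, 33.8 and -0.780 points for any other list, and 21.5% at 1 library alone. The highest scoring 50% gave 57.2% of sites matched, ratios of 1.16 and 1.50, 12.9% with 2 or more, neighbour differences of -12.4 and 16.6, chromosome 1 differences of 7.48 and 8.32, -10.1 points for any other list in overexpression peaks, and 27.4% at 1 library alone. Equal list lengths gave 59.2 and 38.2% matched, a ratio of 1.56 for overexpression peaks, 19.4% with 2 or more, and 35.6 and -0.598 points for any other list.

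Joining overexpression peaks gave 33.9% of them matched, a ratio of 1.95, a percentile difference of 30.2, 5.37% with 2 or more, 11.0 points for neighbours and 3.10 points for any other list. Without chromosome 1 the shares were 64.6 and 34.0%, with 24.3% holding 2 or more, -11.4 points for site neighbours, and 35.4 and 0.774 points for any other list. The interval common to both replicates gave 54.4 and 34.5% matched, a site ratio of 1.60, 21.1% with 2 or more, -22.4 points for site neighbours and 44.8 points for any other list. A gap of up to 1 kb gave 62.2% of sites matched. A distance of 5 kb gave -11.6 points for sites, and one of 50 kb gave 9.58 points for overexpression peaks. With 1 knock-in library left out, the ranges were 40.2 to 40.4% of sites and 40.6 to 49.3% of overexpression peaks matched, ratios of 1.52 to 1.55 and of 1.58 to 1.59, a site percentile difference of 34.1 to 35.1, and 18.6 to 20.5% with 2 or more. Neighbour differences were -13.7 to -12.1 and 15.5 to 16.3, chromosome 1 differences were 12.5 to 16.7 and 6.05 to 6.36, and any-other-list differences of 53.2 to 56.2 of 2.98 to 7.48.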
